A study of Mus musculus with 2 samples.

Results

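The 35 genes described here build the cornified envelope and the epidermal barrier. They were taken by name from a list drawn up with earlier results of these data known, and every probe set annotated to 1 of them alone was read on both arrays. All 35 had at least 1 such probe set, among 18193 genes with a probe set of their own. RNA came from cells of postnatal day 4 back skin of CD-1 mice that carried both the K14-RFP and the Sox9-EGFP transgene. Early bulge cells had been sorted as high for the green and the red reporter, and non-bulge outer root sheath (ORS) cells as high for red and negative for green. All cells of both groups therefore carry the same 2 transgenes, and the groups are defined by reporter brightness and not by position in the follicle. How many animals gave each population is not stated in the labels. The interfollicular epidermis had been peeled off, and the sort left out dead cells and those whose side scatter marked them as large and differentiated, so the fully cornifying cells that use most of these genes were not the target of either sort. Each population was measured on 1 Affymetrix array. No ratio below has a replicate check, and no test between the populations was possible.

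In the epidermis, keratinocytes that leave the basal layer switch to the keratins Krt1 and Krt10 and later assemble an insoluble protein shell beneath the plasma membrane. Transglutaminases crosslink precursor proteins such as involucrin, loricrin and the small proline-rich proteins into this shell, and lipids secreted from lamellar granules are attached to its outer face. Corneodesmosomes hold the dead cells together until proteases release them. Within the hair follicle, the infundibulum and the ducts next to it make a related barrier, while the bulge and the lower ORS do not cornify in normal skin.

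Values are linear MAS5 signals per probe set, and where a gene has several, its brightest by mean log2 signal stands for it. Each ratio puts the early bulge signal over that of the non-bulge ORS. A signal below 57.8, the 40th percentile of all non-control signals, was raised to that floor, and a ratio with 1 array at the floor is written as a lower bound. A gene counted as measured if at least 1 array reached the floor, which 30 of the 35 genes did among 13252 measured genes in all. On both arrays the keratins of the basal layer were bright, with Krt5 at 21639 in early bulge cells and 14212 in ORS cells. Sox9, the gene behind the green reporter, was 6.01-fold higher in early bulge cells (4061, against 676 in ORS cells), although other probe sets of it gave a log2 ratio as low as 0.30.

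Of the 30 measured barrier genes, 14 were at least 2-fold higher in early bulge cells, against 7.30% of all measured genes, and 0 were at least 2-fold higher in ORS cells, against 4.78% of all measured genes. By at least 4-fold, 8 were higher in early bulge cells against a background of 1.87%, and 0 in ORS cells against 1.32%. The remaining 16 were less than 2-fold apart. The median log2 ratio of all 30 was 0.82, beside 0.04 over all measured genes, and 27 of the 30 were above the floor on both arrays (median 0.83). Of the marker lists given below, basal keratinocyte markers had a median of 0.81 and hair shaft markers one of 0.83. The other marker lists ran from -3.47 (dermal fibroblast) to 4.115 (sebaceous gland). Without regard to size, 25 of the 30 barrier genes were brighter in early bulge cells, as were 53.0% of all measured genes. The difference was uneven among them: Capns2, Psapl1, Krtdap, Sprr1a, Sbsn, Tgm5, Dmkn and Calm4 lay 4-fold or more apart, while the textbook envelope proteins involucrin and loricrin lay within 2-fold, and Krt2, Flg, Sprr1b, Sprr3 and Alox12b did not reach the floor on either array. Median centring of the arrays, which moved the median of all measured genes to -0.17, kept the same 14 genes and placed 3, Tgm1, Dsg1a and Lypd3, at least 2-fold higher in ORS cells. It also lowered the count at 4-fold to 6, without Dmkn and Calm4. That split of 14 to 3 stands beside 706 to 1019 over all genes under median centring, in place of 968 to 634. In such bulk samples, a difference in the number of cells of a type cannot be told apart from a difference in RNA per cell.

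**Figure D1:**
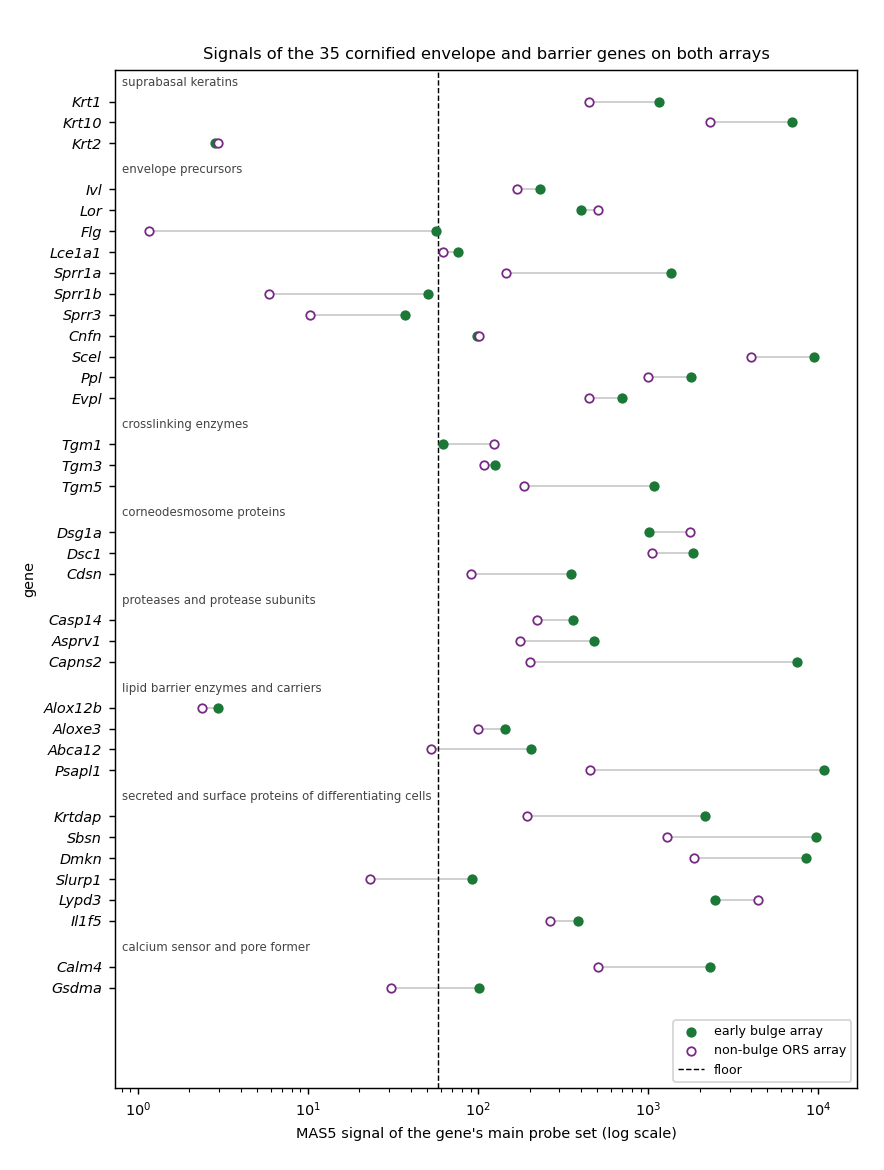
MAS5 signal (log scale) of each of the 35 genes, grouped by role, in early bulge cells (filled circles) and non-bulge ORS cells (open circles), 1 array each, with the floor of 57.8 as a dashed line. Filled circles lie to the right for 25 of the 30 measured genes, and Krt2, Flg, Sprr1b, Sprr3 and Alox12b lie left of the line on both arrays.

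The sequences upstream of 6 of these genes were chosen for display after a motif match had been seen in each. The first 5 belong to genes at least 4-fold higher in early bulge cells, 3 of them neighbours on chromosome 7, and the sixth to a classical envelope gene that was less than 2-fold apart. The other 3 genes at least 4-fold higher, Capns2, Tgm5 and Calm4, had no match in this window and are not printed. Each is the 250 bases before the annotated start in RefSeq, build GRCm38.p6, read 5′ to 3′ on the gene's strand, and for Dmkn it is the first of 3 annotated starts. Capitals mark the letters TGANTCA, which read the same on both strands. Where N is C or G, they are the core to which AP-1 (Fos and Jun) proteins bind, and in Sbsn N is A.
Krtdap, chr7:30787655-30787904, plus strand: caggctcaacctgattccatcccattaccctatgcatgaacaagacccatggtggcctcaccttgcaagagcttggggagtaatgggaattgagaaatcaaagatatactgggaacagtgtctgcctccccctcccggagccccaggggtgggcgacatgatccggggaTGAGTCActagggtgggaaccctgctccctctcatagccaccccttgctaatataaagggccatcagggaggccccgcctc
Sbsn, chr7:30751221-30751470, plus strand: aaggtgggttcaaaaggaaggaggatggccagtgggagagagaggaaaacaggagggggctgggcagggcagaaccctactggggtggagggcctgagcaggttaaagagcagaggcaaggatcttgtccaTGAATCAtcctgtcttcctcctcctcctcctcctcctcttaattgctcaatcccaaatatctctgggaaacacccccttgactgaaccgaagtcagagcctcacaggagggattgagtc
Dmkn, chr7:30763506-30763755, plus strand: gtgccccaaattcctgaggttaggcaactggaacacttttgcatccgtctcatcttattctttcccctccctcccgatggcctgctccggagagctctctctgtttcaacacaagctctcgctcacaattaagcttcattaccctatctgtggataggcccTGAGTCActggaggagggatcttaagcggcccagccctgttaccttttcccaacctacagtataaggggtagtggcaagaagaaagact
Psapl1, chr5:36203771-36204020, plus strand: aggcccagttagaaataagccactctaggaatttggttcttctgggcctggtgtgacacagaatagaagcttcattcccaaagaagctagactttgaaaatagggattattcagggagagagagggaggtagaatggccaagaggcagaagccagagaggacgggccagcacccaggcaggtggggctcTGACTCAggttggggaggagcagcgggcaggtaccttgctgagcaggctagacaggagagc
Sprr1a, chr3:92485882-92486131, minus strand: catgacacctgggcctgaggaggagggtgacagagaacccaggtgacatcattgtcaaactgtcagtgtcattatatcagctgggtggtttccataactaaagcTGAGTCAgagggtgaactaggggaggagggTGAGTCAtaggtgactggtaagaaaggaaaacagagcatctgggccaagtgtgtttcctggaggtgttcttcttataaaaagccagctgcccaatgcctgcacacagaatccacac
Lor, chr3:92083143-92083392, minus strand: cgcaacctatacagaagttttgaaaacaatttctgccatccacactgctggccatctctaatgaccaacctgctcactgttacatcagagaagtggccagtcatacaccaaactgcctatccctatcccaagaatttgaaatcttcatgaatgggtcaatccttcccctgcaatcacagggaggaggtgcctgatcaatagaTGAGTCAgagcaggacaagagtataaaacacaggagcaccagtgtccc

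Promoters were listed for 27 of the 35 genes, and those of Krt1, Ppl, Evpl, Dsg1a, Dsc1, Aloxe3, Slurp1 and Gsdma were not used. The motif stood in this window in 10 of the 27 genes, and in 7.82% of the 27025 genes in the table. It was found in 6 of the 13 listed genes that were at least 2-fold higher in early bulge cells, in 2 of the 9 that were less than 2-fold apart and in 2 of the 5 below the floor on both arrays. In Lor it lay 48 bases before the start. Its central letter was A in Sbsn, Flg and Sprr1b, so those matches lack the C or G of the AP-1 core. In all, 7 short motifs were searched in these windows and TGANTCA was picked after its matches were seen, so the counts are a description, and a match is not a binding site. The TATA box letters TATAAA, read on the gene's strand alone, were found in 9 of the 27 genes and in 8.94% of all genes. Of the other 5, the Grhl letters were also read on the gene's strand alone, and the rest on both strands. The Klf letters GGGTGG stood in 14 of the 27 genes (30.6% of all genes), the C/EBP letters TTNNGNAA in 14 (40.3%), the E-box CANNTG in 21 (69.3%), the GATA letters AGATAA in 3 (11.4%) and the Grhl letters AACCNGTT in 0 (1.08%). None of the 7 patterns was masked where it overlapped another.

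Among the suprabasal keratins, Krt1 and Krt10 were both higher in early bulge cells. Krt1, the type II keratin made as cells leave the basal layer, gave a signal of 1148 in early bulge cells and 448.8 in ORS cells (2.56-fold). Its partner Krt10 gave 7021 in early bulge cells and 2308 in ORS cells (3.04-fold). Both ratios exceeded the 2.23-fold of the basal keratin Krt14 in its main probe set, whose other probe sets ran up to a log2 ratio of 2.43. Krt2, a keratin of the upper spinous and granular layers, stayed far below the floor on both arrays (2.82 in early bulge cells and 2.94 in ORS cells). Of 5 measured keratins of other suprabasal and stratified epithelia, Krt77 (448.6 in early bulge cells against 69.2 in ORS cells, 6.48-fold), Krt80 (4.28-fold) and Krt78 (at least 2.25-fold) were higher in early bulge cells and 2 were less than 2-fold apart.

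The envelope precursors divided into 2 at least 2-fold higher in early bulge cells (7.30% of all measured genes), 6 less than 2-fold apart and 3 below the floor. Sprr1a, a small proline-rich protein that bridges other envelope proteins, gave 1365 in early bulge cells and 145.7 in ORS cells (9.37-fold), and 99.5% of measured genes had a lower ratio. Its close relative Sprr1b gave 50.7 in early bulge cells and 5.84 in ORS cells, and Sprr3 gave 37.2 in early bulge cells and 10.3 in ORS cells, all under the floor, where signals have no order. Scel, which encodes sciellin, a precursor in the envelope of stratified epithelia, gave 9434 in early bulge cells and 4001 in ORS cells (2.36-fold).
The scaffold plakins, on which the envelope starts to form, were closer together. Periplakin (Ppl) gave 1781 in early bulge cells and 999.6 in ORS cells (log2 ratio 0.83), and envoplakin (Evpl) 699 in early bulge cells and 448 in ORS cells (0.64). Ivl, the early crosslinked precursor involucrin, gave 232 in early bulge cells and 169.2 in ORS cells, a log2 ratio of 0.46, and its second probe set was below the floor on both. Lor, which encodes loricrin, the main protein of the mature epidermal envelope, had the lower signal in early bulge cells (401.9, against 507.6 in ORS cells). Its log2 ratio was -0.34, and a second measured probe set gave -0.46. Cnfn, the envelope protein cornifelin, was nearly equal (98.8 in early bulge cells and 100.3 in ORS cells). Lce1a1, a late envelope protein, gave 76.1 in early bulge cells and 61.9 in ORS cells from a probe set of the _x_at class, which may also detect related genes. Flg encodes filaggrin, which bundles keratin filaments in the granular layer. Its signal was 56.1 in early bulge cells, just under the floor, and 1.15 in ORS cells.

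**Figure D2:**
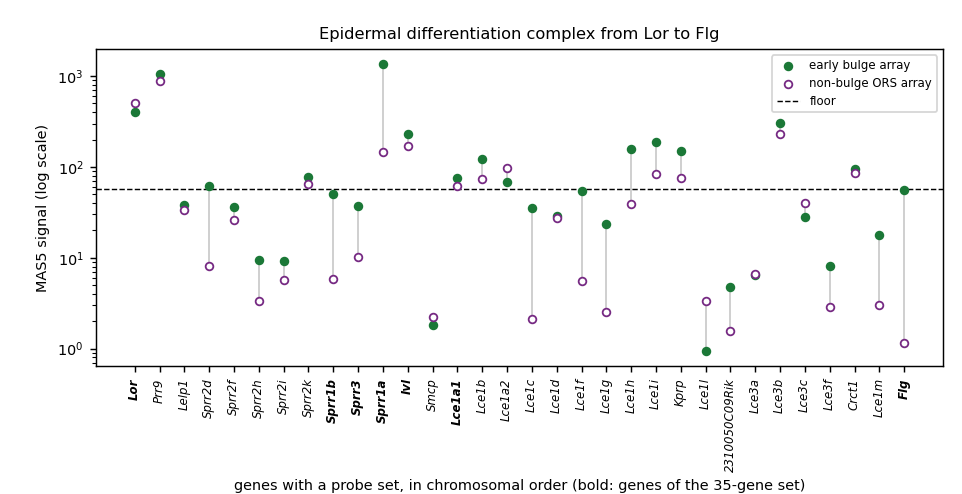
MAS5 signal (log scale) of the 32 genes with a probe set in the epidermal differentiation complex from Lor to Flg, in chromosomal order, in early bulge cells (filled) and ORS cells (open), with the floor as a dashed line. Of these genes 18 lie under the line on both arrays, and Sprr1a has the widest gap among the measured ones.

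Of the envelope genes, 7 lie in the epidermal differentiation complex, a cluster on chromosome 3 in which envelope genes stand side by side. Between Lor and Flg, 32 genes of this cluster had a probe set, and 14 of them were measured. Of these, 3 were at least 2-fold higher in early bulge cells and 0 in ORS cells, against 7.30% and 4.78% of all measured genes. Besides Sprr1a these were the late envelope genes Lce1h (at least 2.73-fold) and Lce1i (2.21-fold). The near-identical genes of the Lce and Sprr families can share probes, so the ratios of Lce1h and Lce1i are uncertain. In a list of other genes of this complex, 25 of 43 had a probe set of their own and 10 were measured. Most of the measured ones also lie between Lor and Flg and are already counted above. In that list, 2 were 2-fold higher in early bulge cells, again Lce1h and Lce1i, 8 were less than 2-fold apart and 15 were below the floor. Kprp, a keratinocyte proline-rich protein, was the third by size at a log2 ratio of 0.99.

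The 3 transglutaminases, which form the crosslinks of the envelope, did not share a direction. Tgm5 gave 1083 in early bulge cells and 185.5 in ORS cells (5.84-fold). Tgm1, the membrane-bound enzyme that anchors the envelope, gave 61.9 in early bulge cells and 123.8 in ORS cells, just short of 2-fold lower in early bulge cells, and it passed 2-fold after median, quantile or loess scaling. Tgm3, which is also active in the hair and inner root sheath, gave 126.1 in early bulge cells and 108.7 in ORS cells, and its second probe set kept the sign (log2 ratio 0.45, main 0.21).

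The proteins of corneodesmosomes also differed in direction. Cdsn, the secreted adhesive corneodesmosin, gave 352.8 in early bulge cells and 90.1 in ORS cells (3.92-fold). Dsc1, a desmosomal cadherin of the upper epidermis, gave 1835 in early bulge cells and 1055 in ORS cells (log2 ratio 0.80), and its dimmer probe set gave 0.15. Dsg1a, the cadherin desmoglein 1, was lower in early bulge cells (1003, against 1759 in ORS cells, log2 ratio -0.81). The mouse has near-identical Dsg1 copies that can share probes, so the value of Dsg1a alone is uncertain. None of 10 other measured desmosome genes was 2-fold apart (median log2 ratio 0.33). Those furthest apart were the plaque proteins Pkp3 (0.95), Jup (0.89) and Pkp1 (0.70).

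**Figure D3:**
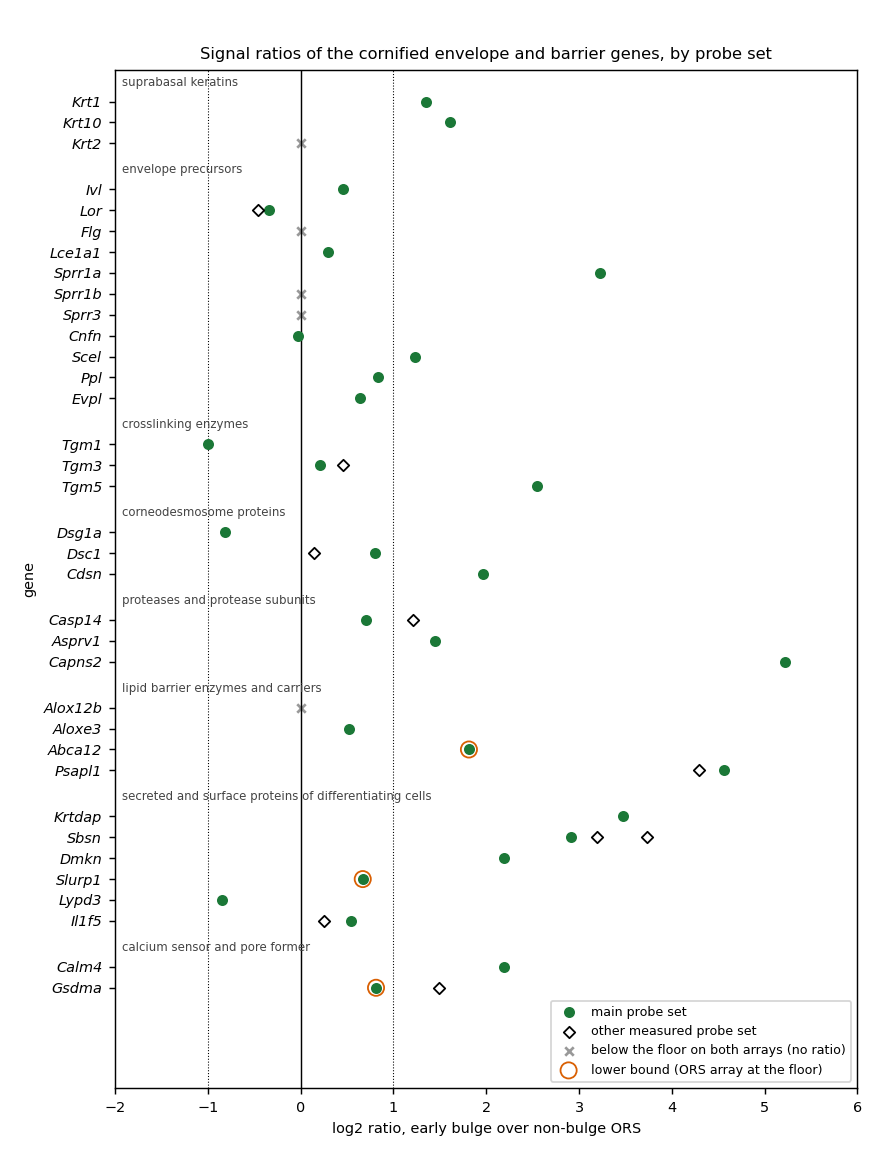
Log2 ratio, early bulge over non-bulge ORS, of each measured probe set of the 35 genes, by role (filled: main probe set; diamonds: other measured probe sets; rings: lower bounds; crosses: below the floor on both arrays, no ratio), with dotted lines at 2-fold. All 8 genes with several measured probe sets keep 1 direction, and Capns2 at 5.21 and Psapl1 at 4.56 lie furthest to the right.

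All 3 genes of proteases or protease subunits had the higher signal in early bulge cells, as did 53.0% of all measured genes. Capns2, a small regulatory subunit of calpain proteases, gave 7503 in early bulge cells and 202.1 in ORS cells (37.1-fold), the widest ratio among these genes. In RefSeq it lies within the span of Lpcat2, a phospholipid enzyme with a log2 ratio of 2.03, and its neighbour Slc6a2 had one of 4.02. The next genes on the Lpcat2 side, Mmp2 (0.23) and Irx6 (a bound of 0.46), were less than 2-fold apart. Asprv1, the protease that processes profilaggrin, gave 477.8 in early bulge cells and 174.9 in ORS cells (2.73-fold). Casp14, a caspase that acts in the breakdown of filaggrin, gave 361.6 in early bulge cells and 222.2 in ORS cells (1.63-fold), and its second probe set gave 2.31-fold.
The desquamation list held proteases that release corneocytes, other proteases, and inhibitors. Of its 16 measured genes, 8 stood 2-fold or more higher in early bulge cells and 0 in ORS cells. The shares over all measured genes were 7.30% and 4.78%. The cysteine protease inhibitor Cst6 was 46.1-fold higher, and the kallikreins Klk7 and Klk5, which cut corneodesmosomes, were 22.3-fold and 8.47-fold higher. The Cst6 and Klk7 signals in ORS cells (59.8 and 63.3) lay only just above the floor. When the floor was set to the 60th percentile, the count was 3.

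Of the lipid barrier genes, Psapl1 stood out. It encodes a relative of prosaposin, the precursor of proteins that help lysosomal enzymes to split sphingolipids, and gave 10734.5 in early bulge cells and 455.4 in ORS cells (23.6-fold). A second probe set gave 3565 in early bulge cells and 182.4 in ORS cells (19.5-fold). In RefSeq, Psapl1 lies within the span of Sorcs2 (log2 ratio -0.57). The flanking genes Tada2b (-0.40), Tbc1d14 (-0.11) and Afap1 (0.55) were also less than 2-fold apart. Ccdc96, another, was under the floor on both arrays. Abca12, which loads lipids into lamellar granules, gave 203.3 in early bulge cells and 52.4, under the floor, in ORS cells (at least 3.52-fold). The lipoxygenase gene Aloxe3 gave 143.4 in early bulge cells and 99.9 in ORS cells (log2 ratio 0.52), while Alox12b, which acts just before it and lies next to it on chromosome 11, was under 3 on both arrays.
Among other lipid barrier genes, 8 of 16 measured were at least 2-fold higher in early bulge cells and 0 in ORS cells. The shares over all measured genes were 7.30% and 4.78%, and the list had a median log2 ratio of 1.04. The alkaline ceramidase Acer1 was at least 26.9-fold higher (1553 in early bulge cells, against 31.8 in ORS cells), although another of its probe sets gave a log2 ratio of 1.61. The ceramide synthase Cers4 was 5.11-fold higher and the lipase Lipm 4.04-fold higher. At a 60th-percentile floor the count was 5 and the median of that list 0.18.

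Secreted and surface proteins of differentiating keratinocytes included 3 neighbours on chromosome 7, each at least 4-fold higher in early bulge cells, Dmkn only without median centring. They were Krtdap, Sbsn and Dmkn, secreted products of suprabasal cells. Krtdap gave 2151 in early bulge cells and 193.9 in ORS cells (11.1-fold). Sbsn, suprabasin, gave 9644 in early bulge cells and 1279 in ORS cells (7.54-fold), and its 2 other probe sets gave 9.16-fold and 13.3-fold. Dmkn, dermokine, gave 8461 in early bulge cells and 1850 in ORS cells (4.57-fold). The genes that flank the trio, Gapdhs (log2 ratio 0.83), Tmem147 (0.18), Atp4a (0.78) and Ffar2 (a bound of 0.62), were less than 2-fold apart.
The surface protein Lypd3 went the other way, with 2448 in early bulge cells and 4386 in ORS cells (log2 ratio -0.84). Il1f5, the antagonist of the interleukin 36 receptor, gave 386.7 in early bulge cells and 265.2 in ORS cells (log2 ratio 0.54). Slurp1, a small secreted protein whose loss causes thickened palm skin in humans, gave 91.98 in early bulge cells and 22.9, under the floor, in ORS cells (a bound of 0.67). Calm4, a calmodulin-like protein of differentiating mouse epidermis, gave 2294 in early bulge cells and 502.1 in ORS cells (4.57-fold). Gsdma, a gasdermin that can form membrane pores, gave 101.6 in early bulge cells and 30.8 in ORS cells (at least 1.76-fold), and its other probe set gave at least 2.80-fold. The mouse has related Gsdma copies that can share probes.

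**Figure D4:**
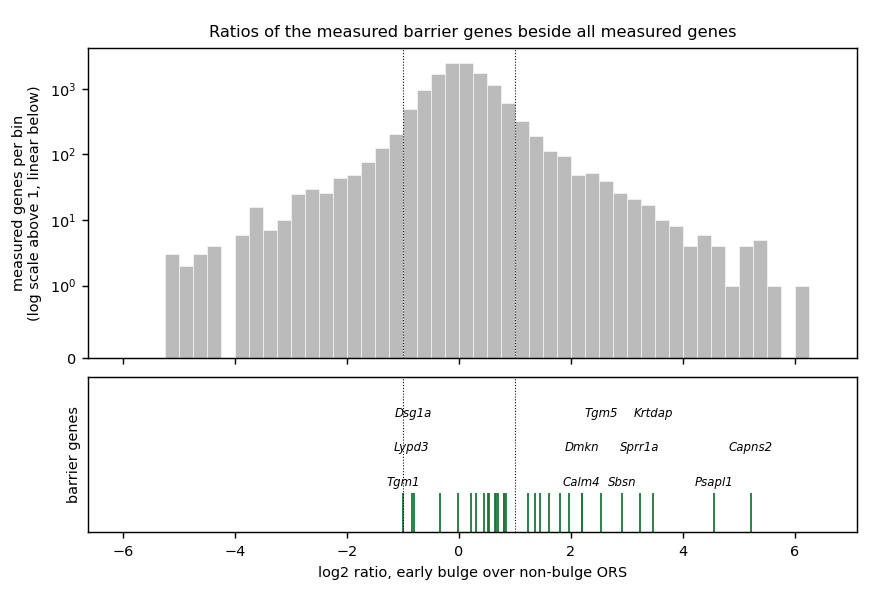
Top, number of measured genes per bin of the log2 ratio, early bulge over non-bulge ORS (13252 genes, log scale above 1). Bottom, the 30 measured barrier genes as ticks, named where at least 4-fold higher in early bulge cells or lowest. The named genes on the right lie in the tail of the distribution, and Tgm1, Lypd3 and Dsg1a lie left of most genes.

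Transcription factors of keratinocyte differentiation were mixed. Of 19 measured, 7 were at least 2-fold higher in early bulge cells (7.30% of all measured genes) and 11 less than 2-fold apart. Hopx, named after its value was seen, was 2.32-fold higher in ORS cells. Prdm1, a repressor found in sebaceous and differentiating keratinocytes, was 5.75-fold higher in early bulge cells (991.8, against 172.6 in ORS cells). The homeobox gene Barx2 was 5.41-fold and the POU factor Pou2f3 2.83-fold higher. After median centring the count was 4. None of 9 measured tight junction genes was 2-fold apart (median 0.06). Cldn1 (0.59), Tjp1 (-0.43) and Marveld2 (-0.36) were furthest apart, and probe sets of Cldn1 ran from -0.10 to 0.96.

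Several follicle cell types had markers that also differed between the arrays, and their part in the ratios was not tested. Over all measured genes, 7.30% were at least 2-fold higher in early bulge cells and 4.78% in ORS cells. A summed signal adds the unfloored signals of a list's genes, including those under the floor, and the brightest weigh most. The lists share genes and are not independent. Cst6 is also in the desquamation list, Krt14 is also the gene behind the red reporter, and Krt15 is both a bulge and a basal marker. All 8 markers of the upper follicle and junctional zone were at least 2-fold higher in early bulge cells, with a summed signal of 57434 there and 11067 in ORS cells. Krt79 was 45.2-fold, Cst6 46.1-fold and the antimicrobial peptide Defb6 at least 20.3-fold higher, and Gata6 and Defb6 were under the floor in ORS cells. Without suffixed probe sets, Plet1, named after its value was seen, was less than 2-fold apart. Of 10 measured sebaceous gland markers, 8 were at least 2-fold higher in early bulge cells (summed signal 29489, against 7361 in ORS cells), led by Acsbg1 (at least 41.9-fold), Far2 (at least 30.2-fold) and Cidea (at least 25.9-fold). Those 3 and Pparg were under the floor in ORS cells. Of 7 basal keratinocyte markers, 3 were 2-fold higher in early bulge cells (summed signal 85017, against 49652 in ORS cells). They were Lamb3 (3.96-fold), Krt14 (2.23-fold) and Itga6 (2.10-fold), of which Lamb3 alone passed 2-fold after median centring. By these ratios, 14 of the 30 measured barrier genes had a larger ratio than Krt14 and 16 a smaller one. That split rests on the main probe set of Krt14, the lowest of its 3, which ran up to a log2 ratio of 2.43.
Of 10 dermal fibroblast markers, 9 were at least 2-fold higher in ORS cells, with a summed signal of 6007 in early bulge cells and 53989 in ORS cells. Lum (log2 ratio -4.90), Dpt (-4.49) and Col1a2 (-3.75) led them, Pdgfra was under the floor in early bulge cells, and Fbln2, named after its value was seen, was 2.78-fold higher there. Inner root sheath markers, of a layer that itself uses transglutaminases, had 3 of 10 at least 2-fold higher in ORS cells, namely Krt28 (-3.58), Krt71 (-1.64) and Krt25 (-1.33), and 0 in early bulge cells (summed signal 10872, against 24964 in ORS cells). Krt26 was under the floor in early bulge cells. Of 7 immune markers, Ptprc, Cd3e, Cd207 and Itgam were under the floor on both arrays, and Lyz2 (-0.82), Cd68 (a bound of 0.72) and Csf1r (0.17) were less than 2-fold apart. Their summed signal was 429 in early bulge cells and 350 in ORS cells.
Bulge markers included Foxc1 (38.0-fold) and Nfatc1 (32.2-fold), higher in early bulge cells, and Cd34 (-3.29), with 4 of 10 at least 2-fold higher there and 1 in ORS cells. The summed signal of this list was 58793 in early bulge cells and 24018 in ORS cells. Of 3 measured companion layer markers, Krt6a was 38.4-fold higher in early bulge cells, Krt75 had a log2 ratio of -2.51 and Krt16 one of 0.01, and Krt6b was under the floor on both arrays (summed signal 7591 in early bulge cells and 2622 in ORS cells). Of 8 hair shaft markers, 4 were at least 2-fold higher in early bulge cells, led by Krt33b (at least 3.47-fold), Krt33a (2.89-fold) and Krt86 (2.67-fold), with a summed signal of 3718 in early bulge cells and 2281 in ORS cells. Krt33b and Krt34 were under the floor in ORS cells. None of 7 melanocyte markers was 2-fold apart, the widest being Tyrp1 (0.79), Tyr (0.72) and Sox10 (0.34), with a summed signal of 2837 in early bulge cells and 2578 in ORS cells.

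**Figure D5:**
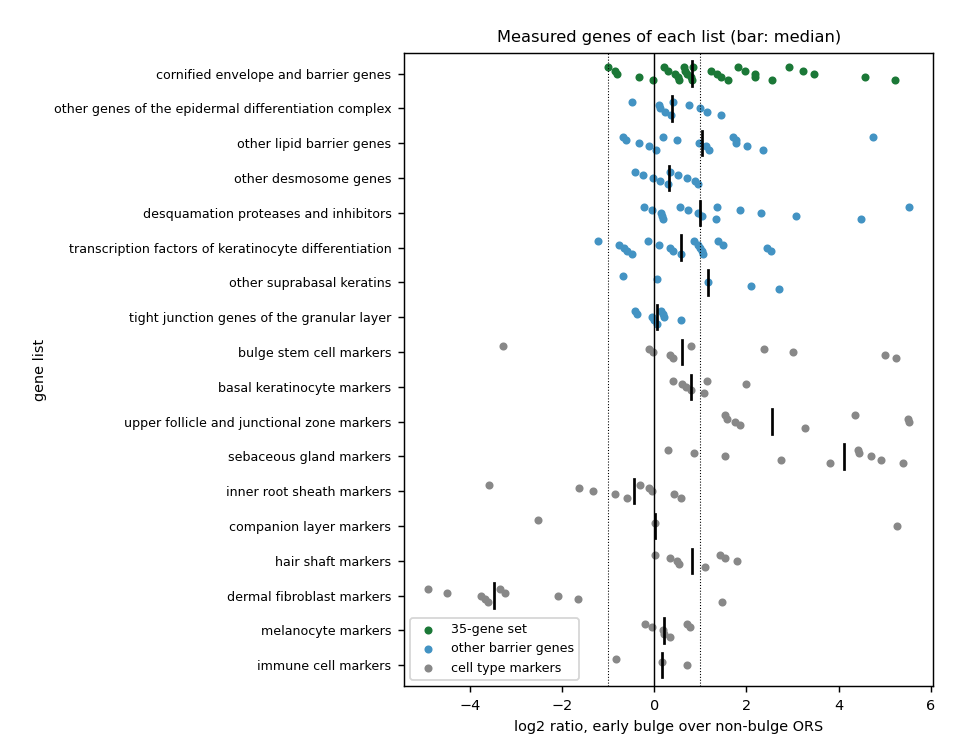
Log2 ratio, early bulge over non-bulge ORS, of the measured genes of each list (points) with the list's median (bar) and dotted lines at 2-fold. The 30 barrier genes have a median of 0.82, near those of the basal keratinocyte (0.81) and hair shaft markers (0.83). The markers of the upper follicle lie entirely right of the 2-fold line, and 9 of 10 dermal fibroblast markers lie left of it.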

How the data were processed

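Total RNA of each sorted population was labelled as biotinylated cRNA and hybridised to 1 array, per the labels' protocols. Each deposited value is the intensity of 1 probe set on a linear scale, and the submitters' processing notes name MAS5 and Affymetrix Expression Console as the authors' tools; versions and a genome build are not given in the sources used here. After trimming of 2% at each end, the mean over the 45101 probe sets came to 500.0 for either array, which shows a common scaling target. MAS5 subtracts mismatch signals, which makes low values noisy, and detection calls were not used here.

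Genes were named from the platform annotation. Control probe sets (64) and probe sets with several or no symbols were left out, which gave 18193 genes from 34945 probe sets. Signals of 62.0% (early bulge) and 58.0% (ORS) of the other probe sets reached the floor of 57.8. Of 13252 measured genes, 1718 had 1 array at the floor. The members, lists and rules were chosen with earlier results of these data known. All members are accounted for; of each other list up to 3 measured genes with the largest absolute log2 ratio, and the genes behind the reporters, are named. Krt5, and markers because they lay under the floor, were named besides, after their values were seen; other genes outside the rule are marked so. Flanking genes were taken by position. Those of the Aloxe3 and Il1f5 loci were also read, where Vamp2 (log2 ratio 1.11) and Il1f6 (a bound of 1.10) alone passed 2-fold. Alternatives were median, quantile and loess scaling (span 0.4, statsmodels 0.14.6), a floor lowered to the 20th or raised to the 60th percentile, signals without a floor or with a pseudocount of 57.8, the mean over probe sets, and probe sets with no _s, _x or _a suffix. The ratio step was tested on simulated data. Computations used Python 3.11.15 and pandas 2.3.3. Precision is limited by there being 1 array per population.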

Additional observations from a re-analysis of the deposited data

How the results depend on the processing

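Under all 9 alternatives the count of these genes at least 2-fold higher in early bulge cells lay between 13 and 18 (14 as reported), and 12 of the 14 genes were in it under each. The exceptions were Abca12, at a 60th-percentile floor, and Krt10, which has no probe set without a suffix. The share of all measured genes at least 2-fold higher in early bulge cells also varied. It ran from 5.34% after median centring to 11.4% at a 20th-percentile floor, the setting that gave the 18. The count at least 2-fold higher in ORS cells was 0 as reported, 3 after median centring, 1 after quantile normalization and 1 after loess scaling. The median log2 ratio of 0.82 became 1.355 at a 20th-percentile floor, which adds Flg, Sprr1b, Slurp1 and Gsdma to the 2-fold count, and 1.296 with no floor. It fell to 0.66 after median centring. At a 60th-percentile floor it was 1.237, without suffixed probe sets 1.222 and over probe set means 1.198. Under the other alternatives it ran from 0.849 to 0.886. Of 257 ratios of single genes under the alternatives, 246 moved by less than 0.414 on the log2 scale, the spread between probe sets of 1 gene over 6172 genes, and 0 of the ratios past 2-fold changed sign. That spread is technical, comes from these same arrays and cannot stand in for the missing replicates. Among other genes of the epidermal differentiation complex, the count of 2 was 4 at a 20th-percentile floor, 0 at a 60th-percentile floor or without suffixed probe sets, and 1 after each scaling or with a pseudocount. Of desmosome genes, 1 was 2-fold higher in early bulge cells after loess scaling, and of tight junction genes 1 at a 20th-percentile floor or with no floor. Over probe set means, 1 lipid barrier gene was 2-fold higher in ORS cells, and Hopx was not, nor had it a probe set without a suffix. At a 60th-percentile floor, 3 in place of 8 desquamation genes and 5 in place of 8 lipid barrier genes were higher in early bulge cells by 2-fold or more, and after median centring 4 in place of 7 transcription factors, 1 in place of 3 basal markers and 6 in place of 8 barrier genes at 4-fold. The 60th-percentile floor also left fewer genes measured and narrowed ratios with 1 array below it. Over all genes, 10076 were then measured, and 6.11% of them were at least 2-fold higher in early bulge cells. Of the hair shaft markers, 2 in place of 4 passed 2-fold at a 60th-percentile floor or with a pseudocount, and after median or quantile scaling 1 immune marker, Lyz2, was 2-fold higher in ORS cells. No paired analysis was possible because each population has 1 array. Signals near the floor, such as those of Lce1a1, Tgm1 and Cnfn, give the least reliable ratios.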
